A study of Mus musculus with 6 samples.

Results

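The genes described are the 6 subunits of the MCM2-7 helicase (Mcm2 to Mcm7), the loaders Cdc6 and Cdt1, the licensing inhibitor Gmnn (geminin) and the replisome factor Mcm10. They were chosen by name, as every probe set of the array whose only annotated gene symbol is one of these 10, which gave 27 of 45101 probe sets and 10 of 18193 genes. The cells were V720, mouse breast cancer cells whose tissue is given as mammary epithelium, grown in medium with fetal calf serum. They received vehicle or 1 µM PD0332991 (palbociclib, an inhibitor of the kinases CDK4 and CDK6) for 24 h. Each group held 3 samples, which the study's design text calls biological replicates, each hybridized to its own Affymetrix expression array. The labels name no genotype and no other agent, and a single line was used.

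Before a cell can replicate its DNA, each origin has to be licensed. In G1 the origin recognition complex, Cdc6 and Cdt1 load MCM2-7 rings onto DNA in an inactive form, and in S phase the rings are activated as the core of the replicative helicase when Cdc45 and the GINS complex join them. Geminin binds Cdt1 and prevents loading again within the same cycle, and Mcm10 takes part in the activation of the loaded ring. Many of these genes are known E2F targets, and E2F factors are held in check by the retinoblastoma protein until cyclin D with CDK4 or CDK6 phosphorylates it.

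All 10 genes were lower with PD0332991. The fall ran from 1.72-fold for Mcm7 to 3.22-fold for Cdc6, and the median log2 fold change was -0.98, where that of all genes was 0.00. In limma's test each of the 10 passed the adjusted p threshold of 0.05, with adjusted p from 4.5e-05 to 0.000461, while 11.2% of all genes were called lower and 9.81% higher. On each of the 10 genes every PD0332991 array lay below every vehicle array, a pattern that 19.6% of all genes showed. Cdc6, Mcm5, Gmnn and Mcm3 were at least 2-fold lower, as were 1.15% of all genes. A log2 fold change here is PD0332991 minus vehicle on the scale log2(intensity + 16), an intensity is the brightness of a probe set in the deposited table, and a gene is represented by its probe set with the highest mean. In these bulk samples, fewer cells that express the genes and less RNA per cell cannot be told apart.

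The 6 arrays were at a like level, with median intensities of 69.56 to 72.74. Arrays of the same group correlated at 0.9969 to 0.9973 across genes and arrays of different groups at 0.9919 to 0.9927. The balance of calls over all genes moved with the scaling, from 46.7% higher among those called to 56.9% after centring on the array median and 14% after each array was set to its 9 spike-in probe sets, which put the median of all genes at -0.12. Vehicle replicate 1 had the lowest spike-in mean, 9.74 on the log2 scale against 9.94 to 10.05 on the other 5 arrays. Under each of these scalings the 10 genes stayed lower and called, and their median was -0.95 and -1.11. The epithelial markers Krt8, Krt18, Epcam, Cdh1 and Cldn7 were bright on every array, from an intensity of 5316 to 13130. Krt19 was at or near the lowest values (1.00 to 2.27), and Krt5 and Krt14 were dim (10.6 to 54.2). None of the 8 epithelial markers was called, and their summed intensity was 44586 to 46040 with vehicle and 46372 to 47514 with PD0332991. Of 6 leukocyte markers 3 (Cd68, Adgre1 and Ptprc) were called higher and none lower, where 9.81% of all genes were called higher. Csf1r, Itgam and Cd3e were not called, with log2 fold changes of 0.05, 0.11 and -0.18. Itgam and Cd3e were near the bottom of the range, at no more than 10.1 and 7.09 on any array. The summed intensity of the 6 was 457 to 496 with vehicle and 562 to 589 with PD0332991. Cd68, a macrophage marker and the only one of the 6 above the median gene, read 216 to 247 with vehicle and 291 to 319 with PD0332991. Ptprc, the pan-leukocyte marker, was dim and also did not overlap between the groups, at 9.95 to 13.3 and 17.1 to 19.1. The part of these markers in the results was not tested. Of 6 fibroblast markers 1, Pdgfra, was called lower, as were 11.2% of all genes. Their sum was 314 to 364 against 277 to 307. The 4 endothelial markers were not called, with sums of 110 to 136.

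**Figure D1:**
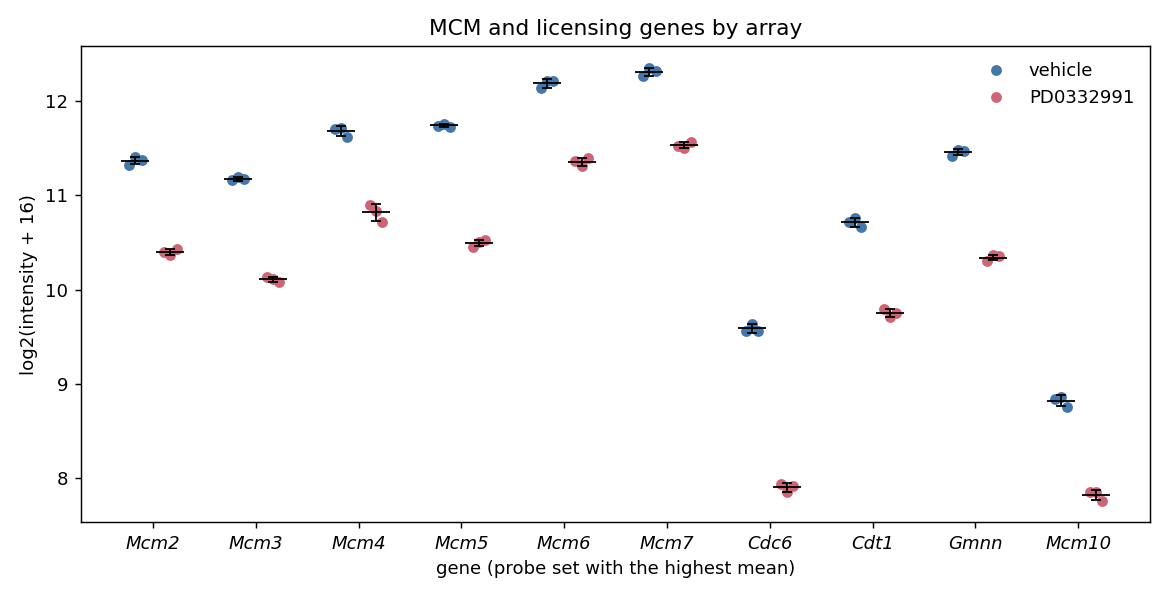
Value of each gene on each array, as log2(intensity + 16) of its brightest probe set, for 3 vehicle (blue) and 3 PD0332991 (red) arrays; the bar is the mean and the whiskers the SD. For each gene all red points lie below all blue points, with the widest gap for Cdc6, and heights cannot be compared between genes because each has its own probes.

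The start regions of these genes were examined because the genes moved together. RefSeq promoter windows (build GRCm38.p6, 250 bases before to 50 bases after the annotated start) were matched by symbol for 8 of the 10 genes, with 2 starts for Mcm7, and Mcm4 and Gmnn had no match. The windows were searched on both strands for E2F words (TTCCCGC or TTCGCGC or TTGCCGC or TTGGCGC), for the cell cycle homology region, CHR (TTTGAA or TTCGAA), and for CCAAT. An E2F word was present for 6 of the 8 genes, in 7 of 9 windows, against 9.57% of all 32851 windows. CCAAT was present for 6 of the 8 (37.4% of all windows), and a CHR word for Mcm2 and Mcm7 (19.2% of all windows). All windows were counted whatever their base composition, and the windows of these genes were 48.7% to 66.7% G and C. Below are the windows of Cdc6, the gene with the largest fall, of Mcm5, Mcm3 and Mcm6, which hold 3 or more E2F words each, and of Mcm2, which holds none. The first window of Mcm7, the gene with the smallest fall on its brightest probe set, also holds 3 E2F words and is not printed. Capitals mark the E2F words, and a longer run of capitals is a pair of overlapping words on opposite strands.
Cdc6 (chr11:98907901-98908200, plus strand): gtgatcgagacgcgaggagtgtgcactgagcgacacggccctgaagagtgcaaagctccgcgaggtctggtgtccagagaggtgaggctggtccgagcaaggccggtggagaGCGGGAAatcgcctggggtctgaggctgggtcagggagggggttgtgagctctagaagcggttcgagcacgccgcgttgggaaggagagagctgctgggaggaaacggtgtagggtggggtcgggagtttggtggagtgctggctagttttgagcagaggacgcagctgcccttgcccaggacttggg
Mcm5 (chr8:75109259-75109558, plus strand): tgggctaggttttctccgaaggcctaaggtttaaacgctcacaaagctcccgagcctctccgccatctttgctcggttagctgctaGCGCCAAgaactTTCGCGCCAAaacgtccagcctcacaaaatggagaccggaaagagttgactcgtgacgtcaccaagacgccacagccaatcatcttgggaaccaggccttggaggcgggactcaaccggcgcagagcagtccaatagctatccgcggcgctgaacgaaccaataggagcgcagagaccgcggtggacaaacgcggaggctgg
Mcm3 (chr1:20820263-20820562, minus strand): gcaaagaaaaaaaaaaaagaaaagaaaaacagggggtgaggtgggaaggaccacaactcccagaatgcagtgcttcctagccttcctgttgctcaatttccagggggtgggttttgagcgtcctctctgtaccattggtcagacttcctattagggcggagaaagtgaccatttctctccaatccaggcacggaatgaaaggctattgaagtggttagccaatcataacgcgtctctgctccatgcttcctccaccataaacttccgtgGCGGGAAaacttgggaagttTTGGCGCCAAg
Mcm6 (chr1:128359656-128359955, minus strand): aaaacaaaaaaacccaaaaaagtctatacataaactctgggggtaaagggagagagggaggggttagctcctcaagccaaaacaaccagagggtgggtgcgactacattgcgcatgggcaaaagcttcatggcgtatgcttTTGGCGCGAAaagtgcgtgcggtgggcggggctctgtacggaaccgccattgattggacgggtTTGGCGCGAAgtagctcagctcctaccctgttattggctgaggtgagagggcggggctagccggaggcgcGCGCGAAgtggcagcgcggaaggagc
Mcm2 (chr6:88898731-88899030, minus strand): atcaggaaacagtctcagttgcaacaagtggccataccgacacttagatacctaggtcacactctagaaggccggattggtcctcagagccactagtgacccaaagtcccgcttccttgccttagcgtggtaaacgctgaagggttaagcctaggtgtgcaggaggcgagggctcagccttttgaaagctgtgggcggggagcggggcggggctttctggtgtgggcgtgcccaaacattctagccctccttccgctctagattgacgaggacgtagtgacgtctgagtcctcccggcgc

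In the Mcm6 window the run TTGGCGCGAA stood at both -109 to -100 and -46 to -37, counted from the annotated start at +1, and a further word lay at +25 to +31. The words of Mcm5 lay between -164 and -143 and those of Mcm3 between +20 and +49, so that position relative to the start differed from gene to gene. Cdc6 had a single word, at -138 to -132. The Cdt1 window held words at +19 to +25 and +34 to +40. The first Mcm7 start held an overlapping pair at +18 to +27, which also overlaps a CCAAT at +24 to +28. A further word lay at -165 to -159 of that start, and the second Mcm7 start held a word at -113 to -107. The falls of the genes whose windows hold a word ran from 1.72-fold (Mcm7) to 3.22-fold (Cdc6), and Mcm2 and Mcm10, whose windows hold none, had log2 fold changes of -0.97 and -0.999. The Mcm10 window ends in TTGGCG, the first letters of one of the E2F words, and a word that crosses the edge was not counted if present. A match is a description of letters, and binding was not measured.

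**Figure D2:**
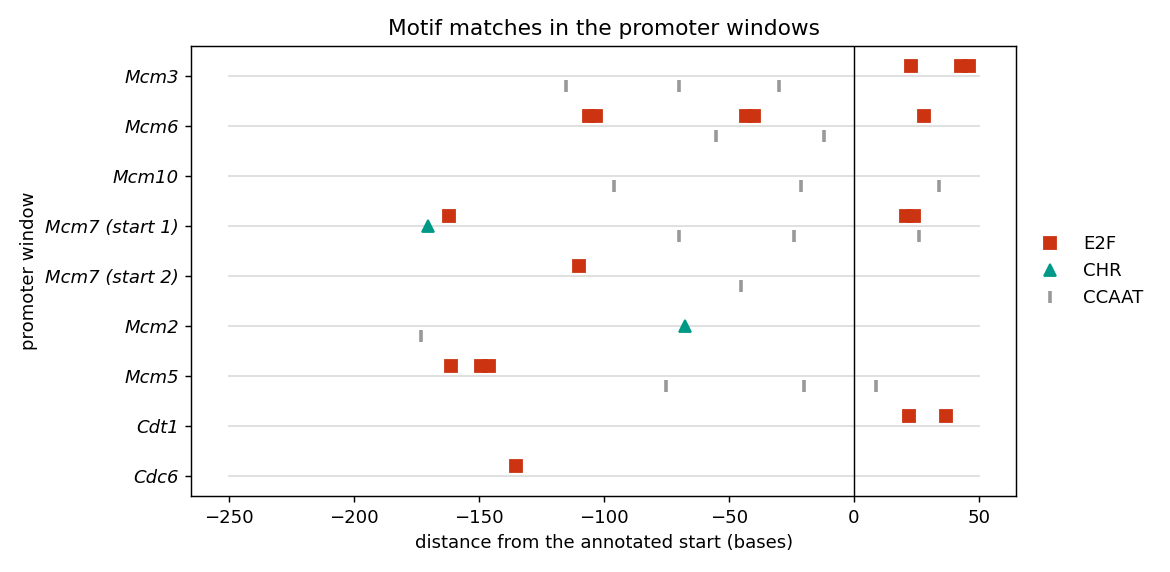
Positions of E2F words (red squares), CHR words (green triangles) and CCAAT (grey bars) in 9 promoter windows, in bases from the annotated start (vertical line). E2F words are present in 7 of the 9 windows and at no common distance from the start.

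The hexamer genes fell by similar but not equal amounts, from 1.72-fold to 2.37-fold. MCM2-7 subunits occupy fixed places in the ring, and each is an ATPase that shares an active site with its neighbour. Mcm5, whose contact with MCM2 forms the gate of the ring, fell most. Its intensities were 3407, 3457 and 3378 on the vehicle arrays and 1389, 1437 and 1460 on the PD0332991 arrays, a log2 fold change of -1.25 (SE 0.04, limma adjusted p = 4.5e-05). The groups were far apart, and the difference was many times the spread within either. Mcm3 had intensities of 2270, 2332 and 2288 with vehicle and 1108, 1089 and 1067 with PD0332991, a log2 fold change of -1.07 (SE 0.03). Mcm2, the other side of the gate, read 2554, 2695 and 2636 with vehicle and 1338, 1306 and 1367 with PD0332991 (log2 fold change -0.97, SE 0.04). Both genes were thus near a 2-fold difference, with the PD0332991 arrays within a narrow range.

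Mcm4, Mcm6 and Mcm7 form a subcomplex that has helicase activity on its own in purified form. On the brightest probe set of each gene they had the smallest falls of the 6. Those of Mcm6 and Mcm7 were also the brightest of the hexamer, with mean intensities of 3630 and 4010. Whether the subcomplex or the brightness of the probe sets has a part in this order was not tested. Mcm4 read 3320, 3351 and 3135 with vehicle and 1897, 1814 and 1674 with PD0332991 (log2 fold change -0.86, SE 0.06, the widest error among the 10 genes). Mcm6 read 4482, 4749 and 4722 with vehicle and 2623, 2523 and 2677 with PD0332991 (log2 fold change -0.83, SE 0.04). Mcm7 read 4902, 5203 and 5111 with vehicle and 2930, 2898 and 3017 with PD0332991 (log2 fold change -0.78, SE 0.04). In all 3 genes the lowest vehicle array was well above the highest PD0332991 array.

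The inequality within the hexamer can also be written array by array. Each gene's log2 value was taken relative to the mean of Mcm2 to Mcm7 on the same array, which removes any factor common to an array. The mean itself went from 11.74 ± 0.027 to 10.79 ± 0.012 (log2, SD, n = 3 each). Relative to it, Mcm5 changed by -0.29 and Mcm3 by -0.11, while Mcm7 changed by 0.18 and Mcm6 by 0.13, and for each of these 4 genes the groups did not overlap. Mcm2 changed by -0.01 with an SD of 0.016 and 0.027, and Mcm4 by 0.10 with an SD of 0.049 and 0.088 (n = 3 each), and for both the groups overlapped. These are values relative to a mean that includes the gene itself, and they rest on 1 probe set a gene. The changes restate the log2 fold changes above less that of the mean, so they are no further support. Over Mcm2 to Mcm7 they cancel, so that some must be positive where others are negative.

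**Figure D3:**
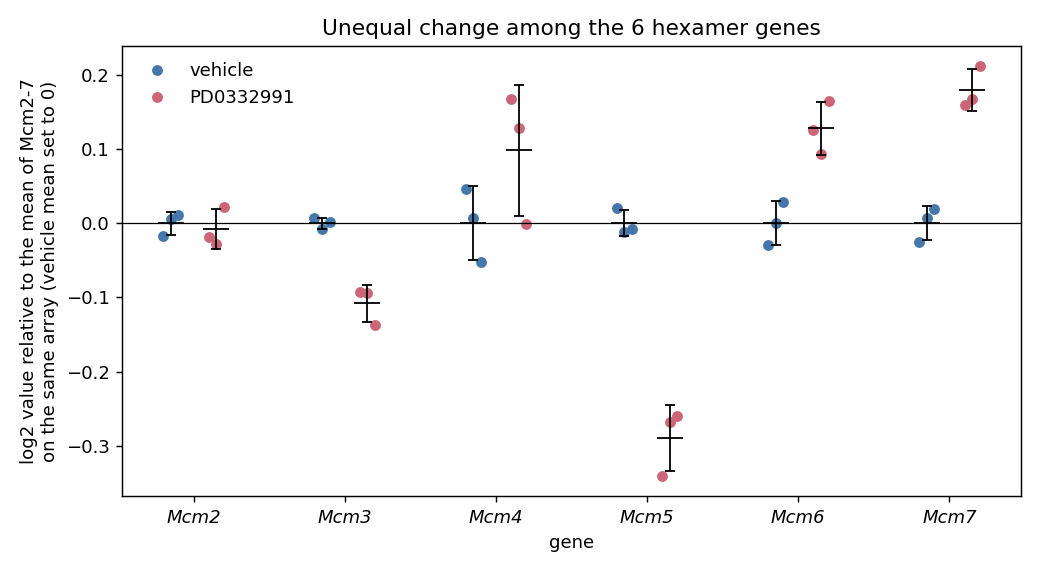
Log2 value of each hexamer gene relative to the mean of Mcm2 to Mcm7 on the same array, with the vehicle mean of each gene set to 0; points are arrays, bars means and whiskers SD (n = 3 each). Mcm5 moved by -0.29 and Mcm7 by 0.18, while Mcm2 stayed within its spread.

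Other probe sets of the same genes bear on that order. Both bright probe sets of Mcm5 gave log2 fold changes of -1.25 and -1.31, which were below all other called probe sets of the hexamer, the nearest being one of Mcm3 at -1.12. The 4 called probe sets of Mcm3 lay between -1.12 and -1.01, the pair of Mcm2 at -0.97 and -1.07, the pair of Mcm6 at -0.83 and -0.90 and the pair of Mcm4 at -0.81 and -0.86. The 4 probe sets of Mcm7 ranged from -0.97 to -0.73, a spread of 0.25 that is wider than the distance between Mcm7 and Mcm2. The place of Mcm7 as the gene with the smallest fall therefore depends on which of its probe sets is used. The mean over all probe sets of a gene, dim ones included, gave every one of the 10 genes as lower and called as well. The order changed with it: Mcm2 (-1.02) fell more than Mcm5 (-0.96) and Mcm3 (-0.92), and Mcm6 (-0.65) fell least of the hexamer. Cdt1 (-0.61) and Mcm10 (-0.50), which each have dim probe sets, also had smaller falls than with the brightest probe set.

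The loaders differed from each other. Cdc6, the ATPase that recruits MCM2-7 to the origin recognition complex, had the largest fall of the 10 genes. Its intensities were 742, 783 and 739 with vehicle and 230, 215 and 225 with PD0332991, a log2 fold change of -1.69 (SE 0.04, 95% interval -1.79 to -1.58). That interval did not overlap the one of Mcm5, the next in order (-1.34 to -1.16). Further down the order of falls, which ran Gmnn, Mcm3, Mcm10, Mcm2, Cdt1, Mcm4, Mcm6 and Mcm7, the interval of each gene overlapped that of the next. Cdc6 has a single probe set. Relative to the hexamer mean on the same array it went from -2.16 ± 0.022 to -2.88 ± 0.033 (log2, SD, n = 3 each), a change of -0.73.

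Cdt1, which brings MCM2-7 to the origin, fell about as much as the hexamer. Its intensities were 1670, 1721 and 1612 with vehicle and 871, 823 and 849 with PD0332991 (log2 fold change -0.96, SE 0.04, limma adjusted p = 8.53e-05). Relative to the hexamer mean it changed by 0.00 (-1.03 ± 0.036 and -1.03 ± 0.029, SD, n = 3 each). Another probe set of Cdt1 gave a log2 fold change of -1.02, and the dimmest was at the bottom of the signal range, with intensities of 1.37 to 9.05 and a log2 fold change of 0.14 that was not called.

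Geminin fell too. Gmnn, whose protein is destroyed at mitosis and builds up again in S phase, read 2726, 2840 and 2829 with vehicle and 1250, 1301 and 1294 with PD0332991 (log2 fold change -1.12, SE 0.04, limma adjusted p = 4.55e-05). The log2 difference between Gmnn and Cdt1 on the same array was 0.70, 0.72 and 0.81 with vehicle and 0.51, 0.65 and 0.60 with PD0332991. The groups did not overlap, and the mean difference moved by -0.15, so that the inhibitor's transcript fell slightly more than that of its target on these probe sets. Against the other bright Cdt1 probe set, with its fold change of -1.02, the distance was smaller. Transcripts were measured here and not the proteins, both of which are controlled by degradation.

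Mcm10 read 443, 451 and 417 with vehicle and 215, 216 and 201 with PD0332991 (log2 fold change -0.999, SE 0.05, limma adjusted p = 0.000112). The groups were separate, and relative to the hexamer mean it changed by -0.04 (SD 0.052 and 0.056, n = 3 each). Its other probe sets were dim, with mean intensities of 33.8 and 24.0 and log2 fold changes of -0.18 and -0.33, and neither was called.

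When each probe set was fitted on its own, 21 of the 27 were called lower and none higher, where 8.19% of all 45037 probe sets were called lower and 6% higher. In 22 of the 27 every PD0332991 array lay below every vehicle array, against 18.5% of all probe sets. The 21 called probe sets had log2 fold changes from -1.69 to -0.73. The 6 that were not called belonged to Mcm10 (2 probe sets), Mcm3, Mcm5, Mcm6 and Cdt1, and each had a mean intensity of at most 89.6, while the dimmest called probe set had 264.9. Fold changes of dim probe sets are compressed on this scale. The intensities differed little as well: the brightest of the 6, a probe set of Mcm3, read 101.6 ± 18.8 and 77.7 ± 9.72 (SD, n = 3 each). Why the uncalled probe sets changed less was not tested. Of the 27, 10 carry the suffix s or x, which Affymetrix gives to probe sets whose probes can match further transcripts, and the brightest probe sets of Mcm2, Mcm3, Mcm4, Mcm5 and Mcm7 are of that kind. Each of the 10 genes also had a called probe set without that suffix: these gave -1.07 for Mcm2, -1.12 for the brightest of Mcm3, -0.81 for Mcm4, -1.31 for Mcm5 and -0.97 for Mcm7.

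**Figure D4:**
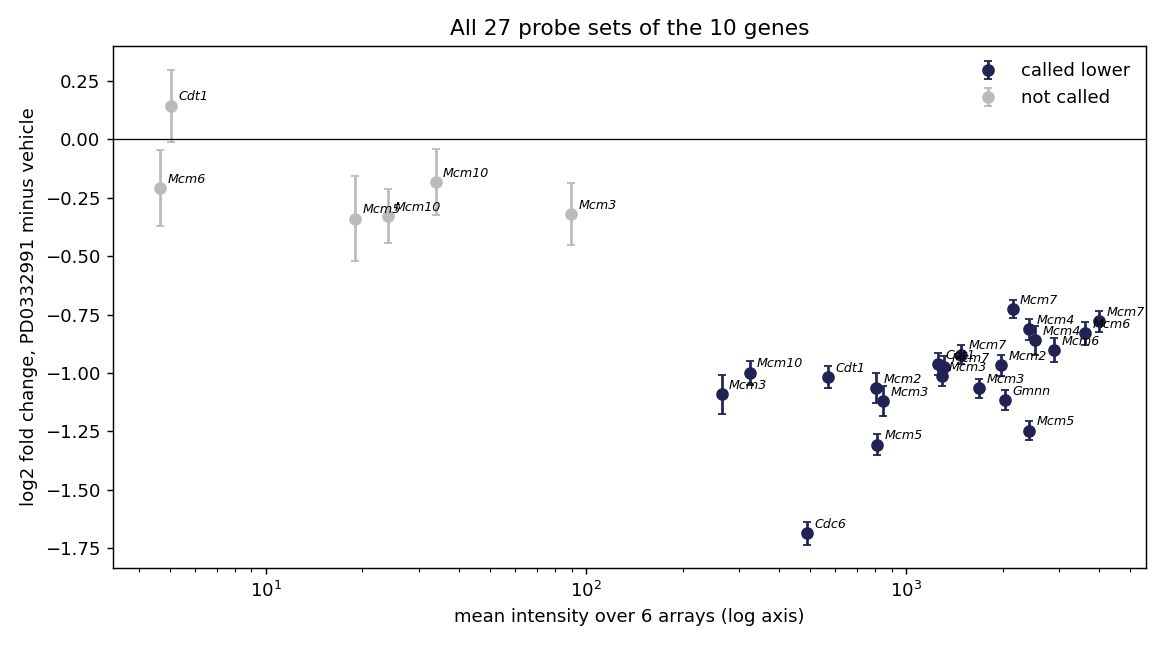
Log2 fold change (PD0332991 minus vehicle, whiskers SE) of all 27 probe sets against their mean intensity over the 6 arrays on a log axis; dark points were called lower and grey points were not called. The 6 grey points lie at mean intensities up to 89.6 and the 21 dark ones from 264.9 upward.

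The partners that act with these genes at origins were taken by name in lists of their own. Among 9 partners of the pre-replicative complex 6 were called lower and none higher, where 11.2% of all genes were called lower and 9.81% higher. The median of the list was -0.26 and its log2 fold changes ran from -0.67 to 0.01. Orc1, the subunit of the origin recognition complex whose level varies through the cycle, read 139, 150 and 159 with vehicle and 95.7, 84.4 and 83.8 with PD0332991 (log2 fold change -0.67, SE 0.07). Orc6 was 1.49-fold lower, Lrwd1, which associates with the origin recognition complex, 1.38-fold, and Mcmbp, which binds MCM subunits, 1.25-fold. On the brightest probe sets every value of this list was a smaller fall than that of Mcm7 (log2 fold change -0.78). For Orc1, which is dim, the margin depended on the setting. With a pseudocount of 1 the log2 fold changes of Orc1 and Mcm7 were -0.76 and -0.78. Another probe set of Mcm7 gave -0.73 in the main setting, so the list was not clearly set apart from Mcm7. Orc4 and Orc5 with Orc3 were not called, and Orc4 read 1483 ± 9.04 and 1490 ± 33.8 (SD, n = 3 each). The call of Orc2 (log2 fold change -0.17) did not survive leaving out any single array.

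All 16 genes of helicase activation and firing were called lower, as were 11.2% of all genes. Their log2 fold changes ran from -1.52 to -0.31 around a median of -0.998. Clspn, an adaptor of the replication checkpoint that travels with the fork, was 2.87-fold lower and Timeless, of the fork protection complex, 2.05-fold. Wdhd1, which links the helicase to DNA polymerase alpha, was 2.35-fold lower, and Ticrr, which brings Cdc45 to the loaded ring, 2.11-fold. The subunits that complete the active helicase with MCM2-7 are named here for that role, with their values seen. Cdc45 went from 575.8 ± 32.3 to 214.3 ± 10.9 (SD, n = 3 each), a 2.57-fold fall. The 4 GINS genes spread widely, with Gins1 2.56-fold, Gins2 1.77-fold, Gins3 1.53-fold and Gins4 1.27-fold lower. The call of Recql4, the smallest fall of the list, was lost without any 1 vehicle array, without PD0332991 replicate 1 and without PD0332991 replicate 2.

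Of 15 genes that act in the turnover of licensing factors or the unloading of the helicase 7 were called lower and none higher, with a median of -0.12. Over all genes 11.2% were called lower and 9.81% higher. Lrr1, the receptor of the ubiquitin ligase that marks MCM7 for unloading at termination, went from 556.8 ± 14.5 to 184.2 ± 10.2 (SD, n = 3 each), a 2.86-fold fall. Dtl, the receptor that directs Cdt1 to destruction in S phase, was 2.01-fold lower, Skp2, another receptor for Cdt1, 1.88-fold, and Traip, a ligase of the replisome, 2.27-fold. Grouped by role after their values were seen, all 5 receptors, activators and single-chain ligases (Dtl, Skp2, Fzr1, Lrr1 and Traip) were called lower. Of the 7 shared parts of the cullin ligases (the RING subunit Rbx1, with Ddb1, Skp1, Cul1, Cul2, Cul4a and Cul4b) 1 was called lower and none higher. That was Rbx1, which fell by 0.35 on the log2 scale (limma, adjusted p = 0.0205), a call lost with the replicate block (adjusted p = 0.0508) and without vehicle replicate 1, vehicle replicate 2, PD0332991 replicate 2 or PD0332991 replicate 3 (adjusted p = 0.0622 to 0.0704). The other 6 had log2 fold changes from -0.12 to 0.09. Outside both groups, Faf1 was called lower (log2 fold change -0.19), and Ubxn7 and Vcp were not called. The call of Faf1 was lost with the replicate block, with spike-in centring and with the mean of its probe sets. Among relatives of the MCM and geminin families, 3 of 6 listed genes were measured, and the others were not analysed here. Mcm8, a helicase of recombination, was 1.58-fold lower, Mcm3ap, an export factor of which a part acetylates MCM3, 1.16-fold, and Mcm9 was not called (log2 fold change -0.26, limma adjusted p = 0.0677). The call of Mcm3ap was lost with spike-in centring (adjusted p = 0.0770).

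**Figure D5:**
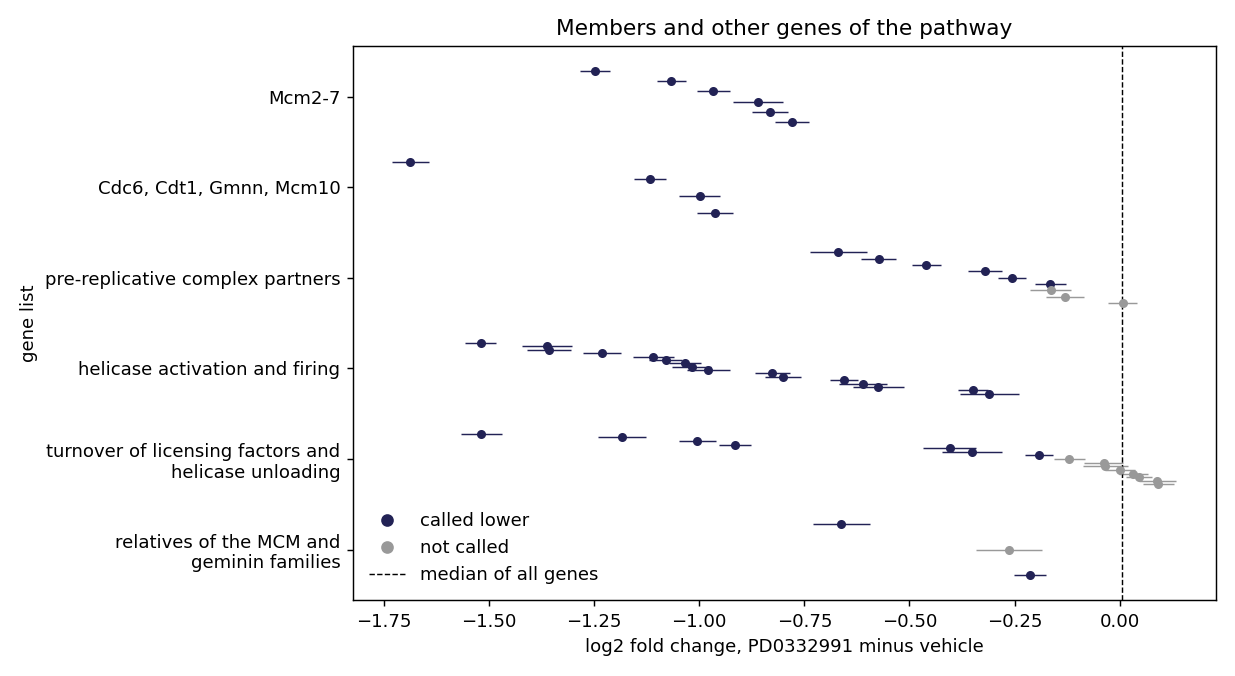
Log2 fold change (PD0332991 minus vehicle, whiskers SE) of the 6 hexamer genes, the other 4 genes and the 4 lists of further pathway genes; dark points were called lower, grey ones were not called, and the dashed line is the median of all genes. All 16 genes of activation and firing are dark, while the lists of pre-replicative partners and of turnover reach the dashed line.

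The genes next to these 10 on the chromosomes were looked up in RefSeq order. Of 20 adjacent genes 12 had a probe set annotated with their RefSeq symbol alone. None of these was called lower, 1 was called higher and 11 were not called, where 11.2% of all genes were called lower and 9.81% higher. The other 8 had no such match, which does not show that the array lacks them. Prkdc, the kinase of end joining that follows Mcm4 on chromosome 16, read 330, 324 and 335 with vehicle and 327, 342 and 346 with PD0332991, a log2 fold change of 0.04 with a 95% interval of -0.06 to 0.13. Tpra1, which follows Mcm2 on chromosome 6 on the opposite strand so that the pair start side by side, went from 415.8 ± 40.0 to 510.5 ± 28.6 (SD, n = 3 each, limma adjusted p = 0.0564). It was called higher with some settings, among them quantile normalization (adjusted p = 0.0322). Hmox1, heme oxygenase, which precedes Mcm5 on chromosome 8, was the one called, from 298.5 ± 33.3 to 473.6 ± 12.7 (SD, n = 3 each), 1.56-fold higher. Aprt, a purine salvage enzyme next to Cdt1, read 2104 ± 24.8 and 2152 ± 70.8 (SD, n = 3 each).

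The genes whose values over the 6 arrays were most like the mean of Mcm2 to Mcm7 were Fam111a, Tcf19, Oip5, Phip and Hirip3, with Pearson correlations of 0.9996 to 0.9999 on the log2 scale. With 2 groups of 3 arrays such a correlation mostly reflects the difference between the groups, and 465 of 18156 genes that varied reached 0.99. Fam111a went from 1030 ± 25.2 to 397.8 ± 3.90 (SD, n = 3 each), 2.53-fold lower, and Tcf19 was 2.84-fold, Oip5 3.32-fold and Hirip3 2.52-fold lower. Phip followed the same pattern with a much smaller fall, 1.21-fold, a call that was lost with the mean of its probe sets (limma adjusted p = 0.0573).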

How the data were processed

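Total RNA was labelled with biotin by the Affymetrix procedure, per the labels' protocols. The deposited table holds 1 linear intensity per probe set and array from the authors; its summarisation and scaling are not given in the sources used here, and the scanner files were not used. No further normalization was applied. After 64 control probe sets were left out, 34945 of 45037 had 1 symbol in the platform annotation. Values were taken as log2(intensity + 16) and compared by limma 3.58.1 (lmFit, then eBayes; R 4.3.3) in two-sided tests. Adjusted p-values are Benjamini-Hochberg values over 18193 genes, or over 45037 probe sets. The fit was tested on simulated data. Tables were made with Python 3.11.15 and pandas 2.3.3, figures with matplotlib 3.10.9. The genes, lists, motifs and alternatives were chosen with earlier results of these data known. Named by rule were every member, up to 4 called genes with the smallest p in each other list, the 5 most like genes and adjacent genes. Further genes of the lists were named outside this rule, among them Orc2, Orc4, Cdc45, the GINS genes, Recql4, Rbx1, Fzr1, Faf1 and Mcm9. The number of arrays limits the precision. The p-values set the difference between the groups against the spread within them, which limma moderates over all genes. That spread is between samples of a single line and does not cover other lines. A replicate block, other scalings, pseudocounts, a filter, other variance models, leaving out arrays and a threshold of 0.01 were tried.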

Additional observations from a re-analysis of the deposited data

How the results depend on the processing

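All 10 genes stayed lower and called under every alternative run (170 values from refits, the replicate block and each array left out among them), and all 10 were also called at a threshold of 0.01. Their median log2 fold change ranged from -1.11 with spike-in centring to -0.89 with the mean of the probe sets. The count of probe sets called lower was 21 to 23. The count over all genes, 3820, was less stable: 2047 with the replicate block, 1715 with spike-in centring, 1571 with spike-in centring over 5 arrays (without vehicle replicate 1, a setting added after the data were seen), 1703 at the 0.01 threshold, and 2497 to 2683 with 1 array left out. The lowest of these was without vehicle replicate 3, and the counts without vehicle replicate 1 and without PD0332991 replicate 2 were 2538 and 2522. The 2 relatives called lower became 1 with the replicate block, with either spike-in centring and at 0.01, and were 2 to 3 with 1 array left out. Of 1012 values for other named or listed genes 33 lost and 22 gained a call, and none reversed. Same-numbered arrays did not deviate together (correlations of 0.01, -0.05 and 0.05, against -0.06 to 0.05 for arrays of different number). Whether samples were prepared in matched sets cannot be read from these values, with 3 arrays a group. Dim probe sets, up to a mean intensity of 89.6, limit what can be seen of a gene.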
